A study of Mus musculus with 68 samples.

Results

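The 18 microarrays described here set oestradiol (E2) directly against insulin-like growth factor 1 (IGF1) in the uterus of wild-type mice 24 h after treatment. They are all the wild-type arrays of these treatments at that time, chosen by their labels, out of 68 arrays in all. Every mouse had been ovariectomized, and 9 uteri were exposed to E2 and 9 to IGF1. The mice came in 3 sets of wild types, each with 3 arrays per hormone. The first set was C57Bl6 mice from a vendor. The second was the wild-type littermates of Ex3aERKO mice, which carry a null allele of the oestrogen receptor gene Esr1. The third was the wild-type littermates of ERaUtcKO mice, in which a floxed Esr1 is deleted by a Cre driven from the Pgr gene. Those littermates were labelled C57B6. E2 was given as 1 intraperitoneal dose of 250 ng in 100 ul of saline. IGF1 was given either as 50 ug into the peritoneum or from a 3-day osmotic pump loaded at 0.5 mg/ml, and the labels do not say which mouse had which. The compared groups therefore differ in molecule and dose, and possibly in route and length of exposure. These cannot be told apart here. Beside them stand 8 wild-type arrays of the saline vehicle, all at 24 h, 16 wild-type arrays of E2 or IGF1 at 2 h, 6 ERaUtcKO arrays and 5 Ex3aERKO arrays of the same hormones at 24 h.

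In the ovariectomized rodent uterus E2 acts through oestrogen receptor alpha in epithelium, stroma and muscle. It sets off fluid uptake within hours and, about a day later, division of the luminal epithelium and the production of secretory and mucosal proteins. IGF1 is made by the stroma in response to E2 and signals to neighbouring epithelium through the receptor IGF1R, the adaptor proteins IRS1 and IRS2 and the kinases PI3K and AKT. Secreted IGF-binding proteins hold IGF1 away from that receptor or carry it, and AKT keeps the FOXO transcription factors out of the nucleus.

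Levels are the deposited log2 intensities, so a difference of 1 is 2-fold, and a positive difference means higher with E2. Differences carry the standard error (SE) of a limma fit with the mouse set as a block, and a gene was called at an adjusted p under 0.05 over 30142 genes. With n = 9 arrays per hormone, 8783 genes (29.1%) were called, 4635 higher with E2 (15.4%) and 4148 lower (13.8%). Among them 567 differed at least 2-fold (1.88%), 480 higher (1.59%) and 87 lower (0.289%). The 9 E2 arrays lay wholly above or wholly below the 9 IGF1 arrays for 323 genes (1.07%). Counts of higher and lower genes in the lists below are to be read against the shares of 15.4% and 13.8%. The tissue is bulk uterus, so fewer cells of a type and less RNA per cell cannot be told apart.

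The widest differences were in genes of the secretory and cornifying epithelium. On the secretory list, made of known late E2 responders, 14 of 19 measured genes were raised and 2 lowered relative to IGF1, 11 of them at least 2-fold higher, with a median difference of 1.57 against a median over all genes of -0.003. Of 18 small proline-rich and cornified-envelope genes, 12 were higher and 1 lower, 8 of them at least 2-fold higher. Against vehicle the same secretory list had a median difference of 2.34 with E2 and of -0.01 with IGF1. All comparisons with vehicle share the same 8 vehicle arrays.

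Sprr2f encodes a small proline-rich protein that is cross-linked into the surface of epithelial cells. It lay at 14.12 to 18.89 on the 9 E2 arrays (median 17.56), at 7.01 to 9.47 on the 9 IGF1 arrays (median 7.76) and at 6.21 to 9.14 on the 8 vehicle arrays (median 7.16). Every E2 array was far above every IGF1 array, while the IGF1 and vehicle ranges overlapped. The difference was 8.94 ± 0.38 (SE; adjusted p = 1.34e-11), or 491-fold, the largest among the genes named here. Its relatives Sprr1a and Sprr2b differed by 7.36 ± 0.25 (164-fold) and 7.16 ± 0.38 (143-fold), again with no overlap between the 9 and 9 arrays. With IGF1, Sprr1a was below the background limit, the 95th percentile of each array's 23 antigenomic control probe sets, on 4 of 9 arrays and Sprr2b on 3 of 9, so these folds rest partly on values at the floor.

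Some keratins of stratified epithelium were also higher with E2, unevenly between the sets. Krt14 and Krt13 were called at 2.00 (adjusted p = 0.0306) and 1.81 (adjusted p = 0.0151). Krt15 and Krt4 were not called, at 1.5 (adjusted p = 0.144) and 0.27 (adjusted p = 0.0614). Krt5, a basal-cell keratin, was higher with E2 by 3.26 ± 1.11 (SE; adjusted p = 0.0338), but its spread within a group was wide and the call was lost when any of several single arrays was left out. In the Ex3aERKO littermates alone it ran from 6.78 to 14.34 with E2 and from 6.11 to 13.65 with IGF1. The E2 array with Krt5 at 6.78 had Sprr2f at 17.56 and Sprr1a at 12.61. The IGF1 array with Krt5 at 13.65 had Sprr2f at 8.61 and Sprr1a at 6.87. In the ERaUtcKO littermates Krt5 separated by hormone, at 12.45 to 14.06 with E2 and 6.53 to 8.93 with IGF1, and so did Krt14, at 9.50 to 11.63 and 6.16 to 6.88. Trp63, the transcription factor of basal cells and added after its value was seen, had a difference of -0.01 and no call. The part of stratified epithelium in the small proline-rich differences was not tested.

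Lactoferrin and the mucins gave the same separation. Ltf, the iron-binding secretory protein long used as a marker of E2 action, was at 12.77 to 14.07 with E2 (median 13.27) and at 7.2 to 10.49 with IGF1 (median 8.55). The vehicle arrays, at 8.44 to 10.08, lay inside the IGF1 range. The difference of 4.68 ± 0.33 was 25.7-fold. Muc1, a membrane mucin of the luminal surface, was at 13.15 to 14.63 with E2 (median 13.37) and at 9.17 to 11.16 with IGF1 (median 9.38). It differed by 3.92 ± 0.10, or 15.2-fold, and the membrane mucins Muc4 and Muc20 differed by 4.12 ± 0.11 and 4.08 ± 0.12. Clca1, a secreted protein that acts on chloride conductance, was at 14.91 to 16.41 with E2 and at 8.22 to 11.44 with IGF1, a 34.2-fold difference. The kallikrein protease Klk1 was at 10.24 to 12.49 against 5.41 to 7.28, or 44-fold, with 4 of 9 IGF1 arrays below the background limit. None of these genes overlapped between the hormones.

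**Figure D1:**
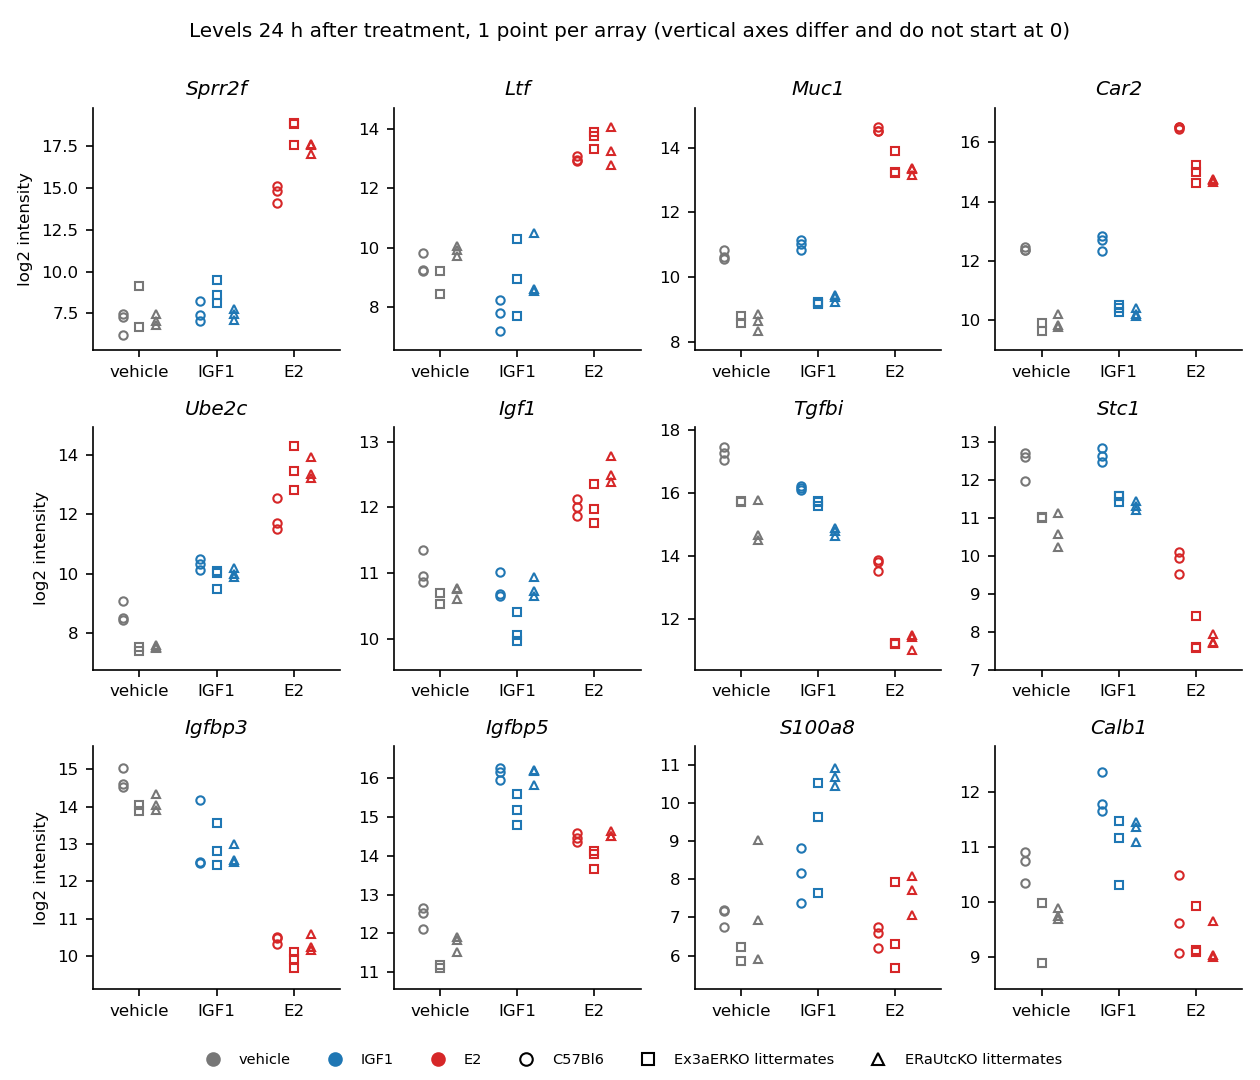
Log2 intensity (vertical axes) of 12 genes on each wild-type array at 24 h for vehicle (8 arrays), IGF1 (9) and E2 (9); each point is 1 array and its marker shows the mouse set. Sprr2f, Ltf, Muc1, Car2, Ube2c and Igf1 are higher on every E2 array than on any IGF1 array, Tgfbi, Stc1, Igfbp3 and Igfbp5 are lower on every E2 array, and the ranges of S100a8 and Calb1 overlap.

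Genes for ion and fluid handling were a mixed group with a few very large members. Of 21 channel and aquaporin genes 9 were higher with E2 and 3 lower, and the median difference was 0.06. Car2, the cytosolic carbonic anhydrase that feeds bicarbonate transport, was at 14.63 to 16.53 with E2 (median 14.99), at 10.16 to 12.84 with IGF1 (median 10.42) and at 9.63 to 12.48 with vehicle. Its difference of 4.29 ± 0.10 (adjusted p = 2.78e-14) was 19.6-fold, and IGF1 stood only 0.36 above vehicle. Car12, a membrane-bound carbonic anhydrase, was 6.27-fold higher with E2 than with IGF1. Cftr, the chloride and bicarbonate channel, was at 8.93 to 10.50 against 6.09 to 8.13, or 6.11-fold, with a difference between IGF1 and vehicle of -0.06. Trpv6, a calcium channel of absorbing epithelia, was 11.3-fold higher with E2. Calb1, the cytosolic calcium buffer calbindin, went the opposite way. It was at 9.01 to 10.49 with E2, at 10.32 to 12.36 with IGF1 and at 8.89 to 10.92 with vehicle, and was 3.88-fold lower with E2 than with IGF1. The ranges of the hormones overlapped slightly.

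General epithelial markers were higher together with these products. Of 16 measured markers 13 were higher with E2, none lower and 11 at least 2-fold higher, with a median difference of 1.58. Krt8, a keratin of simple epithelium, was at 13.35 to 14.74 with E2 and at 11.14 to 12.12 with IGF1, and differed by 2.51 ± 0.10 (5.69-fold). Krt7 and Krt19, of the same keratin class, were 5.15-fold and 3.62-fold higher, and Elf3, an epithelial transcription factor, 12.7-fold higher. Mean marker level over the list was 10.43 to 10.78 on the E2 arrays, 8.95 to 9.50 on the IGF1 arrays and 8.43 to 9.50 on the vehicle arrays. The medians of the epithelial and secretory lists, 1.58 and 1.57, were alike in size, and the part of epithelial content in the secretory differences was not tested. Of the other large differences, Adgrg7, an adhesion receptor, was 23.1-fold higher with E2, and Padi1 and Padi2, which convert arginine to citrulline in proteins, were 22.4-fold and 20.1-fold higher. Padi2 was below the background limit on 5 of the 9 IGF1 arrays. Dio2, the deiodinase that activates thyroid hormone, was 16.3-fold higher, standing 3.36 above vehicle with E2 and at -0.67 from vehicle with IGF1.

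Cell-cycle genes were raised by each hormone and more by E2. All 24 measured mitosis genes were higher with E2 than with IGF1, 22 of them at least 2-fold, with a median difference of 1.63. All 24 DNA replication genes were also higher, 11 at least 2-fold, with a median of 0.96. Against vehicle 24 of 24 mitosis genes rose with E2 (of all genes 54.8% were called and 24.3% rose) and 22 of 24 rose with IGF1 (38.6% called and 18.9% rose), with median differences of 3.09 and 1.49. For replication genes 24 rose with E2 and 23 with IGF1, with medians of 1.68 and 0.78. On the log2 scale the median IGF1 response of these lists thus lay between vehicle and E2.

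Ube2c, the ubiquitin-conjugating enzyme of the anaphase-promoting complex, was at 11.51 to 14.29 with E2 (median 13.22), at 9.47 to 10.51 with IGF1 (median 10.08) and at 7.41 to 9.09 with vehicle (median 7.58). The 3 treatments did not overlap. The difference between the hormones was 2.91 ± 0.28 (7.5-fold). Ccnb2, a mitotic cyclin, was at 10.78 to 12.13 with E2 and at 8 to 10.66 with IGF1, a 5.68-fold difference. Plk1, a mitotic kinase, was at 9.02 to 11.92 and at 7.37 to 9.53, so that its ranges overlapped although the difference of 2.18 ± 0.21 was called. Among replication genes Rrm1, a subunit of the enzyme that makes deoxynucleotides, was 3.35-fold higher with E2 and did not overlap, and the replicative helicase subunits Mcm3 and Mcm5 differed by 1.87 ± 0.15 and 1.51 ± 0.13. Of 23 G1 cyclins, inhibitors and E2F factors, 11 were higher and 2 lower. E2f8, a repressor of the E2F family, differed by 1.66 ± 0.10, Myc by 0.83 ± 0.10, the inhibitor Cdkn1a by 1.04 ± 0.16 and the inhibitor Cdkn1c by -0.52 ± 0.09. Mitosis genes separated the hormones within every mouse set for 23 of 24 members, against 10.6% of all genes.

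Promoters of every list were searched for the same motifs, and those of the mitosis genes are described because these members moved together. The sequences are from RefSeq on GRCm38.p6, each window running from 250 bases before to 50 after the annotated start, and 17970 of the genes tested had one. The cell-cycle homology region, a motif bound by the complexes that time mitotic transcription, was searched as TTTGAA, and the CCAAT box, bound by NF-Y, as CCAAT, each on both strands and with overlapping matches kept. TTTGAA was in 16 of 20 mitosis promoters (80%), in 3 of 20 replication promoters (15%) and in 18.3% of all windows. CCAAT was in 18 of 20 mitosis promoters (90%), in 13 of 20 replication promoters (65%) and in 41.6% of all. It was also in 14 of 14 cholesterol promoters (100%) and 16 of 18 endoplasmic reticulum folding promoters (88.9%). A match is a string of letters and was not measured as a bound site. The 250 bases before the start of Ube2c (chr2:164769679-164769928, plus strand) and of Ccnb2 (chr9:70421555-70421804, minus strand), both with a difference over 5-fold, are shown 5′ to 3′ with the motif matches in capitals. The stretch before Ube2c holds 6 CCAAT matches and 1 TTTGAA match, which begins at position -29 from the start and lies on the other strand, so that it is printed as TTCAAA. The stretch before Ccnb2 holds 3 CCAAT matches and 1 TTTGAA match, at position -167. The same stretch of Plk1 (chr7:122159185-122159434, plus strand), another mitosis gene, holds no TTTGAA match and 1 CCAAT match. Plk1 still counts among the 16 promoters with TTTGAA, because its match lies in the 50 bases after the start, which are not printed.
Ube2c: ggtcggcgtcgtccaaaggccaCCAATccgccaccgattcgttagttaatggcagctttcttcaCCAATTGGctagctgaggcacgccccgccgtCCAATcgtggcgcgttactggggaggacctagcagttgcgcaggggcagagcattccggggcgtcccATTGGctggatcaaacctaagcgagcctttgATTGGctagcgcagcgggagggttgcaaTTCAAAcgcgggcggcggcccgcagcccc
Ccnb2: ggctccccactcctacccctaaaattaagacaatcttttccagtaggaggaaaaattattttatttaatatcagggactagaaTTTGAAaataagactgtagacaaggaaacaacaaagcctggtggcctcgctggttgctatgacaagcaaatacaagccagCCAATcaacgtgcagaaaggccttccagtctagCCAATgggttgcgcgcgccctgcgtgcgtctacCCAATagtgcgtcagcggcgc
Plk1: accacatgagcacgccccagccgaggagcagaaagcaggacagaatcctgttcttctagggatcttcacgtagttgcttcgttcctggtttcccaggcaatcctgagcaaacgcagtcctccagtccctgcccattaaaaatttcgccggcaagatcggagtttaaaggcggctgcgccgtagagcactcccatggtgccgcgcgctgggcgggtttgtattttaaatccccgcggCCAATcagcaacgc

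Biosynthetic genes were higher with E2 in most lists. Of 17 cholesterol synthesis genes all 17 were higher with E2 than with IGF1, 6 at least 2-fold, with a median of 0.78, and all 17 rose with each hormone against vehicle, by medians of 2.01 and 1.23. Fdps, which makes farnesyl diphosphate, was at 10.87 to 13.08 with E2 (median 12.29), at 7.93 to 11.87 with IGF1 (median 9.58) and at 6.90 to 7.66 with vehicle. Each hormone's arrays lay wholly above vehicle, and the ranges of the hormones overlapped. The size of the cholesterol difference depended on the mouse set. Cyp51, a demethylase of the sterol pathway, had set means of 11.67 with E2 and 11.14 with IGF1 in C57Bl6 mice, of 11.72 and 11.23 in the ERaUtcKO littermates, and of 11.30 and 8.91 in the Ex3aERKO littermates. In the last set the IGF1 arrays were at 8.49 to 9.30, against 7.58 and 7.61 on its vehicle arrays. The list's median was 0.60, 0.40 and 1.52 in those sets, and without the Ex3aERKO littermates it was 0.47, with 14 of 17 genes still called.

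The fatty acid list had 9 of 14 genes higher and 1 lower (4 and none in a fit on all 42 wild-type arrays), including Fasn, the fatty acid synthase, at 0.89 ± 0.14, and Me1, the malic enzyme that supplies NADPH, at 1.43 ± 0.11. Thrsp, a lipogenic regulator, was lower by -0.88 ± 0.19. Genes for ribosome assembly were higher in 20 of 20 cases, with a median of 0.63, led by the snoRNP protein Nhp2, whose 9 E2 arrays all lay above the 9 IGF1 arrays (1.30 ± 0.16). Of 20 serine, folate and ATF4 target genes 18 were higher and none lower, with a median of 0.56. Psat1 and Shmt2, which make serine and turn it into glycine and folate-bound carbon, were 2.68-fold and 2.82-fold higher. Of 21 genes for protein folding and export in the endoplasmic reticulum 18 were higher, 1 lower and none 2-fold, with a median of 0.50. The ribosome and folding medians also depended on the mouse set. They were 0.325 and 0.216 in C57Bl6 mice, 0.982 and 0.904 in the Ex3aERKO littermates and 0.62 and 0.416 in the ERaUtcKO littermates. Without the Ex3aERKO littermates they were 0.421 and 0.319, with 17 and 15 genes called higher. Pdia6, a disulphide isomerase, differed by 0.96 ± 0.15, and the single lower member was Ddit3, a transcription factor of sustained stress, at -0.56 ± 0.07. Glycolysis genes were higher in 9 of 17 cases and lower in 2. Pgk1, a glycolytic kinase, was 2.62-fold higher, and the glucose transporter Slc2a1 differed by 0.87 ± 0.10.

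**Figure D2:**
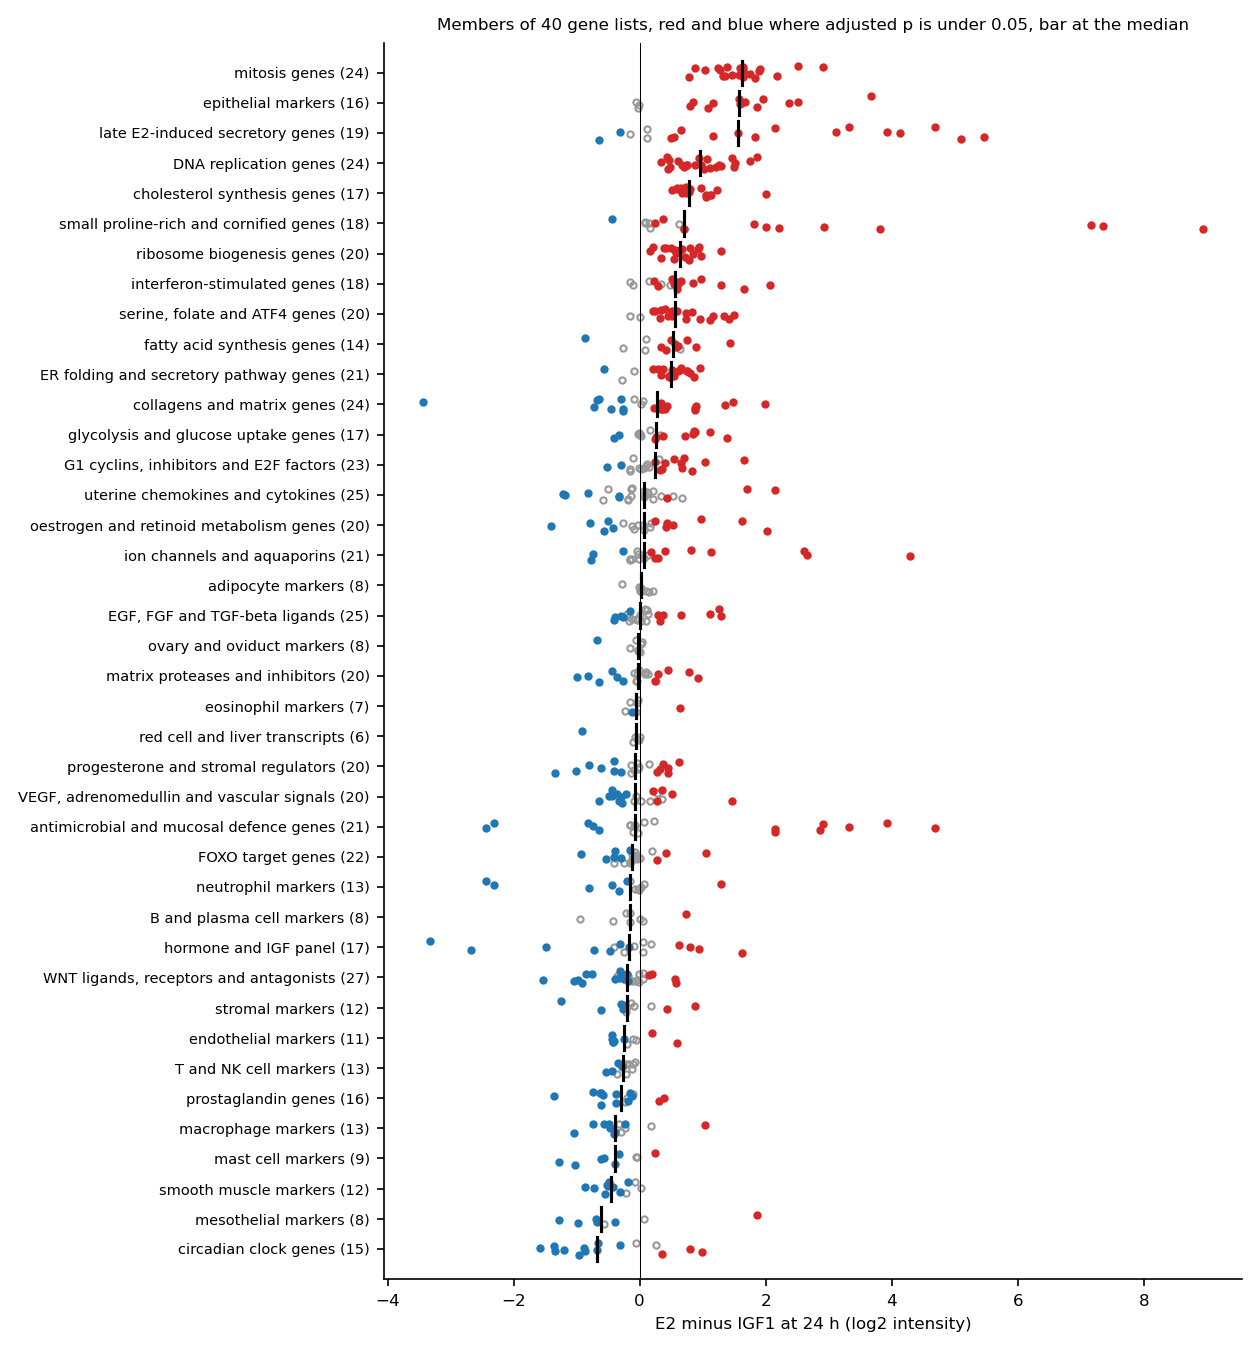
Difference between E2 and IGF1 at 24 h (horizontal axis, log2) for each measured member of 40 gene lists in wild-type uterus; red points are genes called higher with E2, blue points genes called lower, grey points not called, and the bar is the list's median. The mitosis, DNA replication, cholesterol and ribosome lists have no blue points, and the smooth muscle list has no red ones.

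The IGF pathway itself differed by component and not in 1 direction. Of 17 hormone and IGF genes 4 were higher with E2 and 7 lower, against 15.4% and 13.8% of all genes. The lower calls numbered 5 without the C57Bl6 mice or without the Ex3aERKO littermates, and 6 without the ERaUtcKO littermates. Igf1, the ligand, was at 11.76 to 12.78 with E2 (median 12.13), at 9.97 to 11.02 with IGF1 (median 10.65) and at 10.53 to 11.35 with vehicle (median 10.77). The E2 arrays were above all others, and the mice given IGF1 had uterine Igf1 transcript in or below the vehicle range. The difference was 1.63 ± 0.11 (adjusted p = 8.72e-09), or 3.09-fold, and IGF1 differed from vehicle by -0.22. Igf2 was -0.17 ± 0.06 between the hormones (adjusted p = 0.0483), a call lost with the replicate block, after median centring or quantile normalisation, and without most single arrays.

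The binding proteins split. Igfbp3, the main circulating carrier, was at 9.68 to 10.59 with E2 (median 10.25), at 12.43 to 14.18 with IGF1 (median 12.57) and at 13.87 to 15.04 with vehicle (median 14.19). No E2 array reached the IGF1 range, and IGF1 arrays lay mostly below vehicle. It was 6.38-fold lower with E2 than with IGF1, at -4.05 from vehicle with E2 and -1.37 with IGF1. Igfbp5, which binds to matrix as well as to IGFs, was at 13.65 to 14.64 with E2, at 14.79 to 16.27 with IGF1 and at 11.11 to 12.66 with vehicle. Here each hormone lay wholly above vehicle and IGF1 lay highest, 2.79-fold over E2. Igfbp4 was lower with E2 by -0.31 ± 0.08, a call that was lost without the C57Bl6 mice and without the ERaUtcKO littermates. Igfbp2 and Igfbp6 had differences of 0.18 ± 0.07 (adjusted p = 0.0628) and -0.25 ± 0.12 (adjusted p = 0.144).

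Stc1 and Stc2, secreted stanniocalcins that restrain the protease PAPP-A from freeing IGFs, moved in opposite directions. Stc1 was at 7.56 to 10.10 with E2 (median 7.93), at 11.22 to 12.83 with IGF1 (median 11.57) and at 10.22 to 12.72 with vehicle. E2 arrays were below all others, with a 10.1-fold difference (-3.33 ± 0.14). Stc2 was 1.92-fold higher with E2, and Pappa itself 1.65-fold lower. The receptor Igf1r was 1.38-fold lower with E2 (-0.47 ± 0.13, adjusted p = 0.00921), at -1.74 from vehicle with E2 and -1.28 with IGF1, and lost its call without the Ex3aERKO littermates. The adaptors Irs1 and Irs2 had differences of 0.05 ± 0.10 (adjusted p = 0.745) and -0.41 ± 0.18 (adjusted p = 0.104), and Irs2 lay at -2.29 and -1.88 from vehicle with E2 and IGF1.

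Among the oestrogen receptor genes, Esr1 was at 11.89 to 13.55 with E2 and at 12.16 to 13.65 with IGF1, and its difference of -0.09 ± 0.06 was not called (adjusted p = 0.234). Esr2 was below the background limit on all 18 arrays. Pgr, the progesterone receptor, was 1.55-fold higher with E2, and Greb1, an oestrogen receptor cofactor and direct target, 1.74-fold higher. At 24 h neither approached the size of the secretory differences.

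FOXO targets, which AKT signalling lowers, differed little between the hormones. Of 22 genes 3 were higher and 6 lower (15.4% and 13.8% of all genes), with a median of -0.13. Against vehicle 17 of 22 fell with E2 (30.5% of all genes fell) and 17 of 22 fell with IGF1 (19.7% of all genes), with medians of -0.61 and -0.58. Without the Ex3aERKO littermates 3 were higher and 1 lower. Among named members, Txnip, which limits glucose uptake, was at -2.30 from vehicle with E2 and -1.37 with IGF1, and its difference of -0.93 ± 0.25 lost the call without that same set. Bnip3, a mitophagy receptor, was lower by -0.54 ± 0.07, and Gadd45a, a stress-induced growth-arrest gene, was higher by 1.05 ± 0.08.

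**Figure D3:**
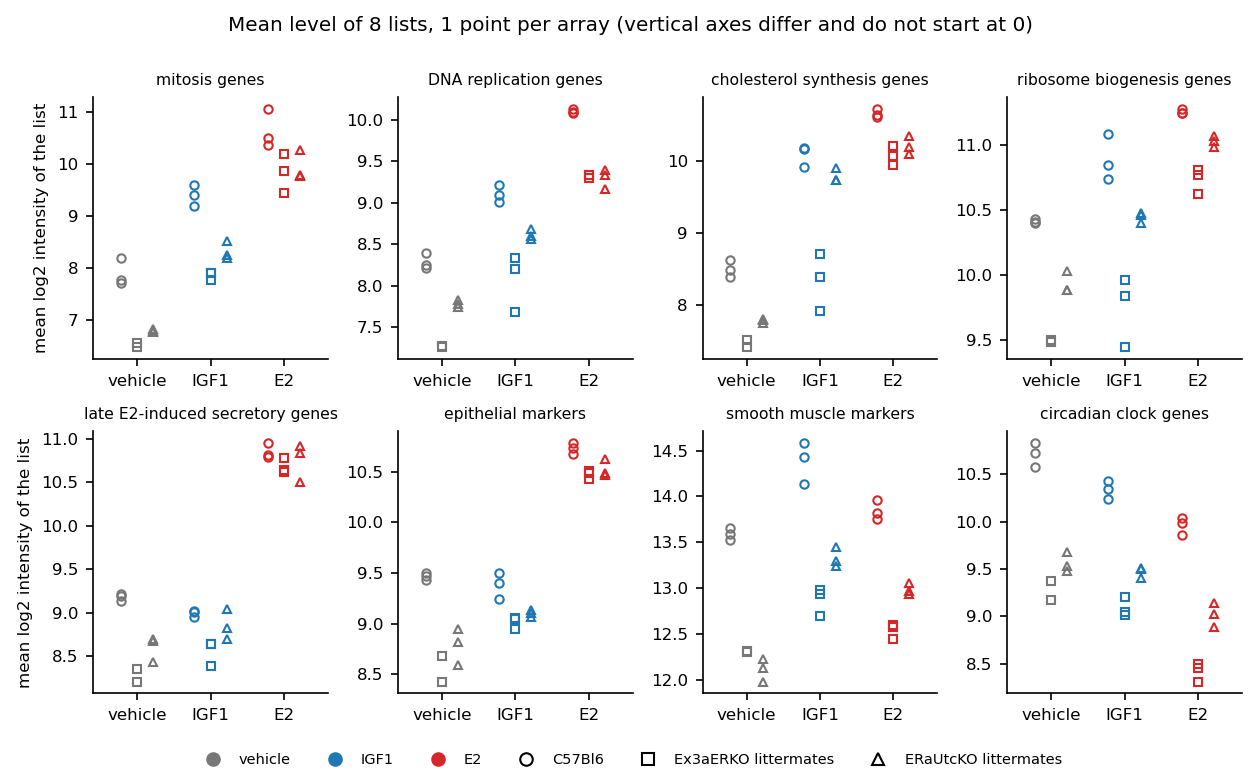
Mean log2 intensity over the measured members of 8 gene lists (vertical axes) on each wild-type array at 24 h for vehicle, IGF1 and E2; each point is 1 array and its marker shows the mouse set. Secretory and epithelial means on all E2 arrays lie above all IGF1 arrays, mitosis means rise from vehicle to IGF1 to E2 within each set, and clock means are lowest with E2 within each set.

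Genes lower with E2 than with IGF1 were fewer past 2-fold and included stromal, matrix and immune genes. Tgfbi, a secreted matrix protein that links collagen to integrins, was at 11.03 to 13.87 with E2 (median 11.43), at 14.65 to 16.23 with IGF1 (median 15.71) and at 14.52 to 17.45 with vehicle (median 15.76). Every E2 array was below every IGF1 and vehicle array, and IGF1 and vehicle overlapped. The difference was -3.43 ± 0.21 (adjusted p = 1.58e-09), or 10.8-fold. It did not mark the whole matrix list, in which 13 of 24 genes were higher with E2 and 8 lower. The 3 collagen VI chains Col6a1, Col6a2 and Col6a3 differed by 1.48 ± 0.15, 1.98 ± 0.16 and 1.36 ± 0.15. Col1a1, the main fibrillar collagen chain, differed by 0.88 ± 0.13 and was above vehicle by 3.14 with E2 and 2.26 with IGF1. Postn, a matrix protein of remodelling stroma, was lower by -0.72 ± 0.14. Over the list the median was 0.92 above vehicle with E2 and 1.06 with IGF1.

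Of 27 WNT pathway genes 4 were higher with E2 and 14 lower, against 13.8% of all genes called lower. The secreted antagonist Sfrp2 was at 8.4 to 10.37 with E2 and at 10.24 to 11.79 with IGF1, with a slight overlap, and was 2.91-fold lower. Its relatives Sfrp1 and Sfrp4 were lower by -1.04 ± 0.19 and -0.97 ± 0.10, while the ligand Wnt5a and the co-receptor Lrp5 were higher by 0.57 ± 0.06 and 0.56 ± 0.06. Of the progesterone and stromal list 6 of 20 genes were higher and 7 lower, with a median of -0.07, and some of the lower ones belong to hedgehog signalling. Ptch1, the hedgehog receptor and a direct target of the pathway, was at 10.17 to 10.70 with E2 and at 11.51 to 12.18 with IGF1, without overlap and 2.53-fold apart. It lay at -2.20 from vehicle with E2 and -0.86 with IGF1. Gli1, the pathway's transcription factor, was 2.01-fold lower, and Nr2f2, the stromal regulator downstream of it, was lower by -0.62 ± 0.08 with no overlap.

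Several of the genes lower with E2 lay further above vehicle with IGF1 than with E2. Lrp2, a scavenging receptor of absorbing epithelia, lay 1.66 above vehicle with IGF1 and at -0.14 with E2, a 3.48-fold difference without overlap. Serpina3n, a secreted protease inhibitor, was at 6.34 to 8.63 with E2 and at 7.92 to 11.49 with IGF1, and lay 2.19 above vehicle with IGF1 and at -0.02 with E2. Tnnt2, a troponin of striated muscle, was above vehicle by 2.88 with IGF1 and 1.16 with E2, and 3.28-fold apart. Cpxm2, a carboxypeptidase-like matrix protein, was at 0.92 and -1.11 from vehicle and 4.09-fold apart. Mt2, a metallothionein, was at 0.68 and -1.12 from vehicle. Cldn1, a tight-junction claudin, was below vehicle with both hormones, at -2.97 with E2 and -1.06 with IGF1, and 3.76-fold apart.

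Immune and defence transcripts did not move as a group. In the antimicrobial list 7 of 21 genes were higher with E2 and 5 lower, and the higher ones included Ltf, Muc1 and Lcn2, an iron-sequestering secretory protein (9.95-fold). S100a8, a calcium-binding protein of neutrophils and stressed epithelium, was at 5.68 to 8.07 with E2 (median 6.75), at 7.37 to 10.92 with IGF1 (median 9.63) and at 5.86 to 9.04 with vehicle (median 6.84). The IGF1 arrays were mostly highest, E2 and vehicle overlapped, and the difference of -2.43 ± 0.37 was 5.4-fold. Its partner S100a9 differed by -2.32 ± 0.33. Of 13 neutrophil markers 6 were lower with E2 and 1, Ly6g, higher, and the list's mean level was 5.34 to 6.51 with E2 and 5.59 to 6.80 with IGF1. The part of neutrophil number in the S100a8 difference was not tested.

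Macrophage markers had 8 of 13 members lower with E2 and 1 higher, against 13.8% and 15.4% of all genes. The lower calls numbered 5 without the C57Bl6 mice, 7 without the Ex3aERKO littermates and 4 without the ERaUtcKO littermates. The list's median was -0.715 in C57Bl6 mice, -0.275 in the Ex3aERKO littermates and -0.283 in the ERaUtcKO littermates. Mrc1, the mannose receptor of resident macrophages, was 2.07-fold lower, 1.22 above vehicle with IGF1 and 0.17 with E2, and Cd14 was 2.05-fold higher with E2. Of 9 mast cell markers 6 were lower and 1 higher, with 4 lower when the ERaUtcKO littermates were left out. Hdc, which makes histamine, was 2.44-fold lower with E2 and lay 1.39 above vehicle with IGF1 and 0.10 with E2, and Cpa3, a mast cell carboxypeptidase, was lower by -1.03 ± 0.18. The chemokine list had 3 of 25 genes higher and 5 lower, against 15.4% and 13.8% of all genes. Ccl28, a mucosal chemokine, was 4.42-fold higher with E2, and Ccl11, which attracts eosinophils, 3.25-fold higher without overlap. Cxcl12, a stromal chemokine, was 2.26-fold lower. Eosinophil markers were called in 2 of 7 cases, 1 each way, close to the 29.1% called among all genes.

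E2 exceeded IGF1 for 13 of 18 interferon-stimulated genes and was below it for none, with a median of 0.57. Oas2, an antiviral enzyme that makes oligoadenylate, was at 7.86 to 10.22 with E2, at 5.89 to 8.37 with IGF1 and at 6.23 to 9.57 with vehicle, so that all ranges overlapped. Its blocked difference was 2.07 ± 0.17 (4.2-fold). Oas1a, of the same family, was at 10.15 to 10.90 with E2 and at 7.85 to 9.81 with IGF1, without overlap and 3.15-fold apart. Bst2, the membrane protein tetherin, was 2.46-fold higher, its ranges overlapping across the sets. The list lay 0.50 above vehicle with E2 and at -0.12 with IGF1. The interferon-stimulated response element, searched as GAAA, any 2 bases and GAAA on both strands, was in 10 of 14 promoters of these genes (71.4%) and in 3.85% of all windows. The stretches before Oas1a (chr5:120907526-120907775, minus strand) and Bst2 (chr8:71537473-71537722, minus strand) each hold 2 overlapping matches, in capitals below in the same layout.
Oas1a: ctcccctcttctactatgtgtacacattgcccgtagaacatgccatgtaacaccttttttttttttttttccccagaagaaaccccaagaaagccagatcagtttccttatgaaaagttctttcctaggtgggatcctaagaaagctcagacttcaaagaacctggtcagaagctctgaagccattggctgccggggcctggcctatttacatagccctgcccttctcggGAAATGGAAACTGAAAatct
Bst2: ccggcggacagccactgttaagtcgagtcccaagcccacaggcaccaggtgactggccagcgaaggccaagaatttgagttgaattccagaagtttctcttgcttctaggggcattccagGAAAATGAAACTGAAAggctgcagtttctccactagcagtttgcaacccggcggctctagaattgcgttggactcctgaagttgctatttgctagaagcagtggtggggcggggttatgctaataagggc

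Core clock genes were lower with E2 more often than higher, in 10 of 15 cases against 3, with a median of -0.67. Nr1d1, the repressor REV-ERB alpha, was at 10.29 to 12.47 with E2 and at 12.39 to 13.93 with IGF1, a slight overlap, and was 2.99-fold lower. The output factors Dbp and Hlf were 2.55-fold and 2.52-fold lower. Arntl, the activator BMAL1 that REV-ERB represses, was 1.74-fold higher with E2. Its E2 and vehicle means were 8.49 and 10.10 in C57Bl6 mice, 6.43 and 6.21 in the Ex3aERKO littermates and 6.89 and 6.62 in the ERaUtcKO littermates, so E2 lay below vehicle in the first set alone. Its relative Npas2 and the repressor Bhlhe40 were higher by 0.36 ± 0.06 and 0.99 ± 0.11. The hour of collection is not in the labels, so clock time and treatment cannot be told apart. The counts were 10 lower and 3 higher when any 1 mouse set was left out. The E-box CACGTG was in 3 of 13 clock promoters (23.1%), against 8.95% of all windows. It was no more frequent there than in other lists, with 5 of 16 ribosome promoters (31.2%) and 4 of 14 cholesterol promoters (28.6%).

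Smaller families split by member, and their counts stand beside 15.4% of all genes called higher and 13.8% called lower. Ramp3, a co-receptor for adrenomedullin, was 2.75-fold higher with E2 without overlap, in a vascular list with 5 genes higher and 9 lower of 20. Among growth factors Nrg1, an ERBB ligand, was 2.44-fold higher, its receptor Erbb3 was higher by 1.25 ± 0.13 and Inhbb, an activin subunit, by 1.12 ± 0.09, in a list with 7 higher and 5 lower of 25. Prostaglandin genes were lower in 11 of 16 cases and higher in 2. Ptger3, a receptor for prostaglandin E, was 2.58-fold lower with E2 and lay 1.81 above vehicle with IGF1 and 0.45 with E2. Ptgfr, the receptor for prostaglandin F, was 1.67-fold lower, and Ptgs2, the inducible cyclooxygenase, was lower by -0.63 ± 0.10. The oestrogen and retinoid metabolism list had 7 of 20 genes higher and 5 lower, with a median of 0.06. The carriers Crabp1 and Crabp2 were higher by 2.01 ± 0.29 and 1.62 ± 0.17 and the retinal dehydrogenase Aldh1a2 by 0.97 ± 0.10, while the related dehydrogenase Aldh1a3 was lower by -0.78 ± 0.08 and the uptake receptor Stra6 was 2.66-fold lower. Crabp2 was below the background limit on 6 of 9 IGF1 arrays.

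Markers of the other tissue layers moved less than those of epithelium. For smooth muscle 9 of 12 markers were lower with E2 and none higher, with a median of -0.46, and the list stood 0.21 above vehicle with E2 and 0.74 with IGF1. Synpo2, an actin-bundling protein of muscle, was 1.82-fold lower without overlap, and Myocd, the muscle master regulator, was lower by -0.72 ± 0.07. Stromal markers had 2 of 12 higher and 5 lower (8 lower after quantile normalisation), and endothelial markers 2 of 11 higher and 6 lower. Mesothelial markers had 5 of 8 lower and 1, the shared keratin Krt19, higher, and only 2 were lower without the ERaUtcKO littermates. T and NK cell markers had 4 of 13 lower, and B cell markers 1 of 8 higher, against 13.8% and 15.4% of all genes. Adipocyte markers had no call among 8, and ovary markers and red cell or liver transcripts each had 1 lower call. The red cell and liver list varied widely among vehicle arrays, from 5.47 to 11.28, against 5.43 to 7.2 with E2 and 5.59 to 7.59 with IGF1. The part of such transcripts in the comparisons with vehicle was not tested.

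The contrast was then read within each mouse set. Fitted alone, with 3 against 3 arrays, the sets gave 1862 called genes in C57Bl6 mice (6.18%), 3860 in the Ex3aERKO littermates (12.8%) and 3918 in the ERaUtcKO littermates (13%). The test of whether the difference itself varied between sets called 169 genes (0.561%). By set the late secretory median was 1.29, 1.95 and 1.99, and the epithelial median 1.45, 1.49 and 1.57, in the order just given. The mitosis median was 1.29, 1.92 and 1.57, and the clock median -0.53, -0.91 and -0.66. Array medians differed between hormones inside the Ex3aERKO littermate set, at 5.82 to 5.90 with E2 and 5.97 to 6.03 with IGF1, and less elsewhere. The part of this offset in small differences of that set was not tested. Among 2-fold genes past the test between sets, Tgfbi differed by -2.42, -4.43 and -3.46 and Trpv6 by 4.31, 3.52 and 2.67, each in 1 direction. Fabp6, a bile-acid carrier, was at 0.09 in C57Bl6 mice and at 3.15 and 2.40 in the littermate sets, and 7 of 9 IGF1 arrays were below the background limit.

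Arrays from 2 h show which differences were already there. The difference at 24 h minus that at 2 h was called for 8027 genes (26.6%), 4678 positive (15.5%) and 3349 negative (11.1%). This test shares the 18 arrays at 24 h with the main contrast. Mitosis genes were positive in 24 of 24 cases, with a median difference of 0.08 at 2 h. Late secretory genes were positive in 11 of 19 cases and negative in 3, with a median of -0.04 at 2 h. Sprr2f differed by 0.48 at 2 h against 8.94 at 24 h, an interaction of 8.46, and Ltf by -0.04 against 4.68. Car2 differed by -1.08 and Adgrg7 by -1.24 at 2 h, the reverse of their 24 h values of 4.29 and 4.53. Cholesterol genes were positive in 16 of 17 cases, with a median of -0.75 at 2 h.

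Other genes were larger at 2 h. Klk1 differed by 8.46 at 2 h and 5.46 at 24 h. Greb1, a direct target, differed by 4.76 and then 0.80, Pgr by 2.38 and then 0.63, Igf1 by 2.52 and then 1.63 and Inhbb by 3.25 and then 1.12. Gadd45g, a growth-arrest gene, went from 5.91 to 0.83, Pgf, a VEGF-family ligand, from 5.73 to 0.21 and Mad2l1, a spindle checkpoint protein, from 6.48 to 1.72. Irak3, an inhibitor of interleukin receptor signalling, and Dennd2a, an exchange factor for membrane traffic, went from 4.69 and 4.56 to -0.35 and -0.22. Among genes lower with E2, Ptch1 was at -3 and Nr2f2 at -2.59 at 2 h, and Igfbp3 and Tgfbi were at 0.26 and 0.12.

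The knockout lines show what remained of the contrast with less Esr1. Esr1 was at 10.34 to 11.10 on the ERaUtcKO arrays against 12.16 to 12.39 in their littermates. On the Ex3aERKO arrays it was at 9.75 to 10.29 against 11.89 to 12.73. These ranges cover the hormone arrays at 24 h and the vehicle arrays. The interaction, knockout minus littermates, was called for 8926 genes in ERaUtcKO (29.6%), 3991 positive (13.2%) and 4935 negative (16.4%). In Ex3aERKO it was called for 7388 genes (24.5%), 3132 positive (10.4%) and 4256 negative (14.1%). The Ex3aERKO replicate 2 array of IGF1 stood apart, with Sprr2f at 15.46 against 9.65 and 9.91 and with S100a8 at 15, while its Esr1 was 9.95. Without it 6616 genes were called (21.9%), 2693 positive (8.93%) and 3923 negative (13%). Both tests use the littermate arrays of the main contrast, and Ex3aERKO has 2 E2 arrays and 3 IGF1 arrays.

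Most secretory genes had no positive difference left in the knockout lines. In ERaUtcKO 13 of 19 late secretory genes had a negative interaction and none a positive one, and the median difference within the knockout was -0.11. For Ex3aERKO the count was 10 of 19, again with none positive, and the median -0.18 (11 and -0.19 without the array that stood apart). Sprr2f differed by -1.57 in ERaUtcKO and -1.33 in Ex3aERKO, with interactions of -11.55 and -11.03. Without the array that stood apart its Ex3aERKO difference was 0.56 and the interaction -9.13. In Ex3aERKO Klk1 and Clca1 still differed by 0.94 and 0.63 (0.81 and 1.115 without that array), with called negative interactions. Ltf also stayed higher with E2 there. It was at 12.70 and 11.04 on the E2 arrays and at 7.24, 13.38 and 7.45 on the IGF1 arrays. The middle IGF1 value is that of the array that stood apart. Its interaction of -2.16 was not called (adjusted p = 0.478), and without that array the knockout difference was 4.52 and the interaction -0.15 (adjusted p = 0.927). Car2 was at -0.21 and -0.73, and epithelial markers had negative interactions in 11 of 16 genes in ERaUtcKO and 10 of 16 in Ex3aERKO (13 without that array).

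The growth lists changed sign. Within ERaUtcKO and Ex3aERKO the mitosis list had median differences of -0.54 and -0.80 (-0.49 without the array that stood apart), with E2 below IGF1. For cholesterol genes the medians were -0.85 and -0.53 (-0.72 without it). The interaction was negative for 23 of 24 mitosis genes and 17 of 17 cholesterol genes in each line. Ube2c differed by -0.62 in ERaUtcKO and -2.07 in Ex3aERKO (-1.32 without it). Folding genes were at -1.27 and -1.01, and matrix genes at -1.22 and -0.87. Clock genes, lower with E2 in the wild types, were at 0.38 and 0.27 (0.18 without that array), with Nr1d1 at 1.19 and 1.53.

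IGF components did not all change sign. Igf1 differed by -0.02 in ERaUtcKO and 0.28 in Ex3aERKO, Igf1r by 1.26 and 1.43, Igfbp3 by 1.14 and 1.12 and Stc1 by 0.51 and 1.22. Igfbp5 differed by -4.07 and -3.75, a wider gap in the same direction as in the wild types. Igfbp4 also stayed lower with E2 in Ex3aERKO, at -2.70, with a called interaction of -2.48. Lrp2 was at -3.22 and -2.77, and its interaction was not called in ERaUtcKO (adjusted p = 0.0674). Hpgds, a prostaglandin D synthase, was at -0.59 in the wild types and at 4.71 and 5.78 in the knockouts. Inmt, a methyltransferase, was at -1.23 and then 4.16 and 4.44. For Calb1 and S100a8 the interactions were 0.30 (adjusted p = 0.59) and 0.45 (adjusted p = 0.902) in ERaUtcKO. S100a8 ran from 6 to 14.18 over the ERaUtcKO arrays, a spread wider than its knockout difference of -2.62.

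**Figure D4:**
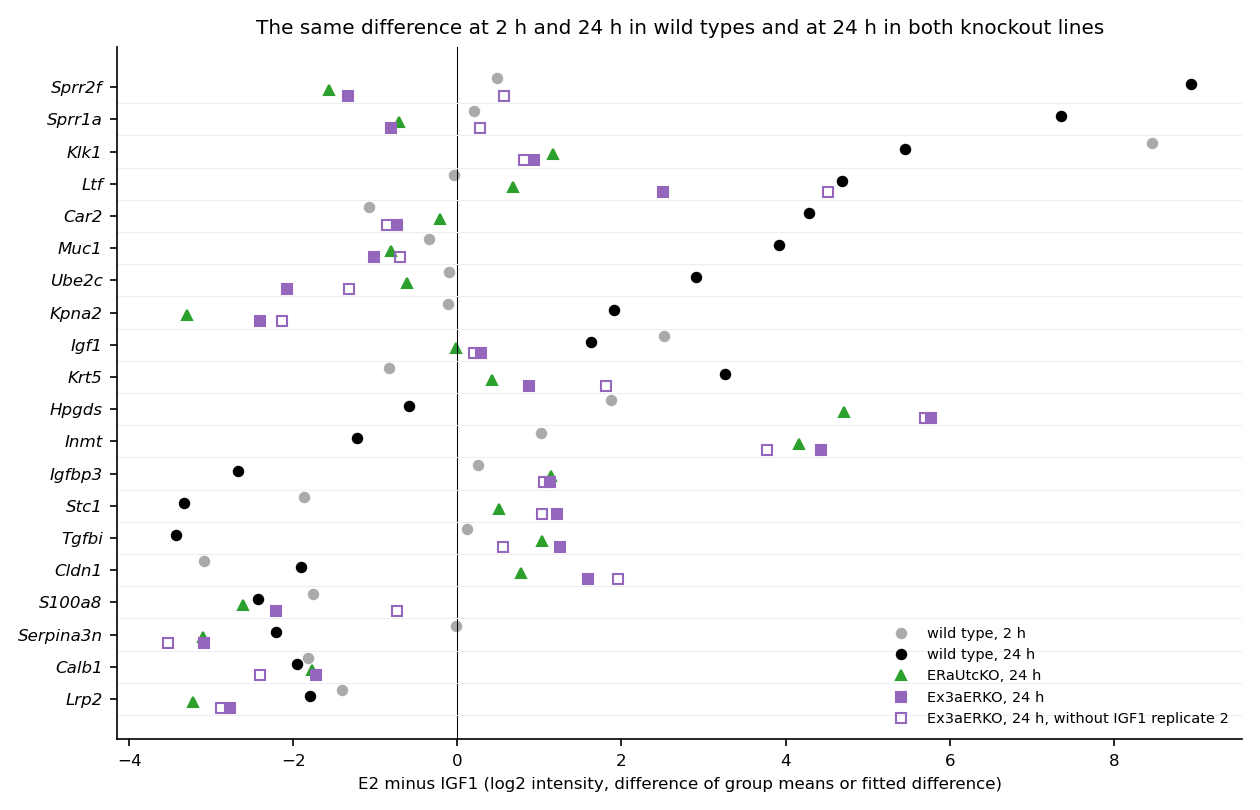
Difference between E2 and IGF1 (horizontal axis, log2) for 20 genes in wild-type uterus at 2 h and 24 h, ERaUtcKO at 24 h and Ex3aERKO at 24 h, the last with and without the IGF1 array that stood apart. Sprr2f, Car2 and Muc1 are far to the right in the wild types at 24 h and near or below 0 elsewhere, Klk1 is furthest right in the wild types at 2 h, and Calb1 and Lrp2 stay to the left in all 4 settings.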

How the data were processed

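Uterine RNA (300 ng per sample) was hybridised to Affymetrix mouse gene arrays, per the labels' protocols. The authors deposited 1 table of log2 intensity for 72688 probe sets, by a normalisation not given in the sources used here. The authors left out outlier arrays found by PCA in groups with 2 arrays, per the series' design text; all 6 groups of the main contrast have 3. The number of arrays limits the precision. The labels do not say that replicates are separate mice, so p-values measure the spread between these samples.

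Probe sets were named through the platform annotation and RefSeq: 32750 were in the annotation, 30604 of them with 1 symbol and 2146 with several (not used), and 39938 were not in it. For 355 genes with several probe sets the brightest was kept, leaving 30142 genes. The main contrast was fitted with limma 3.58.1 in R 4.3.3 (lmFit and eBayes, mouse set as block, 14 residual degrees of freedom), two-sided with Benjamini-Hochberg adjustment. Vehicle comparisons used 26 arrays and the mouse set as block, and time and knockout interactions 34, 12 and 11 arrays. Scripts were tested on simulated data. Replicate numbers did not pair the arrays (correlation of same-numbered deviations -0.293 to 0.283).

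Genes were named by rule: the 15 largest called differences each way with 1 sign in all sets, the hormone and IGF panel, up to 3 called members of each list each way (or the 2 that moved furthest), the 5 most set-dependent 2-fold genes, and the 5 largest interactions each way. Members and lists were chosen from textbook knowledge with earlier results of these data known. Alternatives were median centring, quantile normalisation, leaving out dim genes, averaging probe sets, limma-trend, a fit on 42 wild-type arrays, other blocks, and leaving out each array and set.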

Additional observations from a re-analysis of the deposited data

Results flagged for a closer look

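The test of the E2 and IGF1 difference between mouse sets called 169 genes. Values below are in the order C57Bl6, Ex3aERKO littermates, ERaUtcKO littermates. Tgfbi had differences of -2.42, -4.43 and -3.46. Trpv6 had 4.31, 3.52 and 2.67. Fam3b, a secreted cytokine-like protein, had 1.56, 3.39 and 3.41, and was below the background limit on all 9 IGF1 arrays, so each value is set against the floor of its own set. Golm1, a Golgi membrane protein, had 1.65, 3.19 and 2.23. Fabp6 had 0.09, 3.15 and 2.40, and was below the background limit on 3 E2 and 7 IGF1 arrays.

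The difference at 24 h minus that at 2 h was called for 8027 genes. The largest positive values among the genes called at 24 h were 8.46 for Sprr2f, 7.22 for Sprr2b, 7.16 for Sprr1a, 5.77 for Adgrg7 and 5.37 for Car2. The largest negative values were -5.52 for Pgf, -5.08 for Gadd45g, -5.04 for Irak3, -4.79 for Dennd2a and -4.77 for Mad2l1.

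The ERaUtcKO interaction was called for 8926 genes. On the positive side were Inmt at 5.48, Hpgds at 5.02, Tgfbi at 4.49, Stc1 at 4.05 and Igfbp3 at 3.51. On the negative side were Sprr2f at -11.55, Sprr1a at -8.76, Sprr2b at -8.18, the nuclear import factor Kpna2 at -5.05 and Krt5 at -5.01. Krt5 varied widely within the wild-type groups.

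The Ex3aERKO interaction was called for 7388 genes. On the positive side were Hpgds at 6.52, Inmt at 6.38, Tgfbi at 5.68, Coch (a secreted matrix protein) at 4.93 and Stc1 at 4.89. On the negative side were Sprr2f at -11.03, Sprr2b at -10.52, Sprr1a at -7.97, Ube2c at -5.73 and Klk1 at -5.61. Without the IGF1 array that stood apart these 10 values became 6.45, 5.72, 4.98, 4.86, 4.70, -9.13, -8.91, -6.89, -4.98 and -5.74, and all 10 were still called.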

How the results depend on the processing

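Of the 207 named genes, 202 kept their side of the threshold after centring, 199 after quantile normalisation, 207 with limma-trend and 97 without the mouse-set block. Fitting without the mouse-set block lowered the calls to 599 higher and 163 lower. Leaving out the Ex3aERKO littermates left 2760 lower calls, and leaving out the ERaUtcKO littermates 2528; fewer arrays were then fitted. The share of calls that were higher with E2 was 52.8% as deposited (4635 against 4148), 59.5% after centring each array on its median (5202 against 3543) and 45.3% after quantile normalisation (3990 against 4821). For small differences the balance of higher and lower calls therefore depends on the scaling. The test between mouse sets called 169 genes as fitted, 320 after centring, 51 after quantile normalisation and 265 without genes whose mean was under 5.99; the cause was not tested.

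With the replicate number as a further block, 4209 genes were higher and 3526 lower, the C57Bl6 set alone gave 977 calls, the Ex3aERKO littermates 2257 and the ERaUtcKO littermates 2659. The limma test between sets then called 0 genes, with 3834 at an unadjusted p under 0.05 and a smallest adjusted p of 0.0585, against 4188 unadjusted without the replicate block. The numbers did not pair the arrays. Of the 207 named genes, 202 kept their side of the threshold and Ccnd2, Igf2, Kit, Pecam1 and Siglecf lost the call.

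Leaving out 1 array at a time gave 4263 to 4862 higher calls, 3704 to 4162 lower calls and 535 to 613 at 2-fold. For the sets alone it gave 627 to 1636 in C57Bl6, where the count was 684, 709 and 627 without E2 replicates 1, 2 and 3 and 1038 without IGF1 replicate 1. It gave 1661 to 3631 in the Ex3aERKO littermates, with 1814 and 1661 without E2 replicates 2 and 3 and 2046 without IGF1 replicate 2. In the ERaUtcKO littermates it gave 2337 to 3061, with 2371 without E2 replicate 3 and 2337 without IGF1 replicate 3. The test between sets gave 31 to 544, the time interaction 7597 to 8476, the ERaUtcKO interaction 7754 to 9069 and the Ex3aERKO interaction 5478 to 7378. No named gene reversed among the alternatives run. Some named genes lost the call in at least 1 of the fits that left out 1 array. They were Alox15, Ccnd2, Edn1, Fzd10, Gzmb, Hand2, Igf2, Kit, Krt5, Pecam1, Pgf and Siglecf.

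The medians of the antimicrobial, chemokine, retinoid, matrix protease and eosinophil lists lay near 0, and each changed sign in at least 1 scaling or filter. Without dim genes the antimicrobial median was 1.02.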
